A study of Mus musculus with 27 samples.

Results

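Among inbred mouse strains that share a label of increased severity of spontaneous pulmonary adenoma, lung RNA of strains labelled with increased adenoma frequency was compared with that of strains labelled with decreased frequency. The increased side held A/J, C57BL/6J and DBA/2J, and the decreased side C57L/J, 129S1/SvlmJ, C3H/HeJ and BALB/cJ. Each strain was represented by the right lung of 3 female mice of 11 weeks, so the comparison used 21 of the 27 arrays and 7 of the 9 strains of the series. KK/HlJ and MRL/MpJ, labelled decreased in both severity and frequency, were left out of the tests and are given beside the results. The labels describe a strain and not the individual mouse, and all mice of a strain share a genotype, so the mean of the 3 arrays of a strain was the unit: 3 strain means against 4.

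Pulmonary adenomas of mice are benign growths of the cells that line the alveoli and small airways, and inbred strains differ widely in how readily they form. A/J is in common use as a strain prone to lung tumours after carcinogen exposure, while C57BL/6J is in common use as a resistant one in such experiments; the labels here concern adenomas that arise without treatment. The lining of the mouse airway consists mainly of club cells, which secrete protective proteins and metabolise foreign compounds, and of ciliated cells, whose motile cilia clear mucus. C57BL/6J and C57L/J are related lines that carry opposite frequency labels in this set, and strains related by descent are not fully independent units.

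Values are log2 signals, so a difference of 1 is a change by a factor of 2. The array medians of the 7 strains lay between 6.24 and 6.37, and correlations ran from 0.984 to 0.997 among mice of a strain and from 0.977 to 0.993 across strains. C3H/HeJ replicate 3 was nearest to a mouse of another strain, and the other 20 to one of the same strain. Genes of the Y chromosome, which females lack, had strain means of 2.50 to 5.25, or up to 3.56 without Sry, and signals in that range were read as background. C3H/HeJ replicate 2 stood apart before any comparison: the mean of 13 skeletal muscle genes was 9.40 on that array and 5.05 to 5.46 on the other 20, and the mean of 12 adipocyte genes was 9.07 there against 6.63 to 8.30 elsewhere. Each leading count below is therefore also given without that array. The run numbers of the arrays go up strain by strain, so effects of run and of strain cannot be told apart. Strain differences in the sequence under a probe can also change its signal, and their part in the results was not tested.

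No gene passed the test of the frequency label. With limma on the 7 strain means and the Benjamini-Hochberg adjustment over 20239 named genes, 0 genes (0%) had an adjusted p under 0.05, with or without C3H/HeJ replicate 2, and the smallest adjusted p was 0.791. A limma fit on the 21 arrays with strain as a random block, one of the alternatives, called 17 genes, 14 higher and 3 lower. It takes 1 correlation for all genes (0.246), which understates the spread between strains for genes that vary mostly by strain. Its calls are therefore not read as results. No gene named below passed the test on strain means, and differences are given with the standard error of the limma fit. At an unadjusted p under 0.05 there were 1256 genes (6.21%), of which 323 (1.6%) were higher and 933 (4.61%) lower in the strains of increased frequency. Without C3H/HeJ replicate 2 these counts were 312 and 803. The surplus of lower genes was widest among dim ones and present at middle signals too. Of 6121 genes with a mean signal under 5, 441 (7.2%) were lower and 30 (0.49%) higher. Of 6348 genes with a mean from 5 to 7, 394 (6.21%) were lower and 169 (2.66%) higher, and of 7770 with a mean of 7 or more, 98 (1.26%) were lower and 124 (1.6%) higher. Differences were below 0 for 64% of all genes and above 0 for 36%. The split also depended on the scaling, since quantile normalization gave 504 higher and 396 lower and median centring 433 higher and 524 lower, so no direction is read from the split.

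A description without a model gave the same picture of few and moderate differences. The 3 strain means of increased frequency all lay above, or all below, the 4 of decreased frequency for 1404 genes (6.94%), or 1308 without C3H/HeJ replicate 2. With a minimum difference of 0.5 this left 34 genes (0.168%), 22 higher (0.109%) and 12 lower (0.0593%), and without C3H/HeJ replicate 2 it left 33, 22 higher and 11 lower. These 34 genes lay on 17 chromosomes, and none had another of them within 1 Mb. Of the 34, 27 also varied among the 7 strains beyond the spread between mice (limma moderated F test, adjusted p under 0.05). That test takes no account of the frequency label, and 4644 of all genes (22.9%) passed it (4672 without C3H/HeJ replicate 2). The 34 were chosen for gaps between strains on the same arrays, which favours passing, so the 27 are no separate support. Among the 4644 genes, strain means did not overlap for 254 (5.47%), beside 6.94% of all genes. In 12 contrasts, each of 1 strain of increased against 1 of decreased frequency, a single gene was higher at an adjusted p under 0.05 in all 12 (0.00494%) and 0 were lower in all 12 (0%), the same counts as without C3H/HeJ replicate 2. In at least 10 of the 12, 6 genes were higher (0.0296%), namely Tspan1, Aldh3a1, Armc3, Vtcn1, Trpv4 and Lrrc74b, and 2 lower (0.00988%), Abca17 and Fbp2. Those contrasts share strains and are given as a description, not as independent tests.

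**Figure D1:**
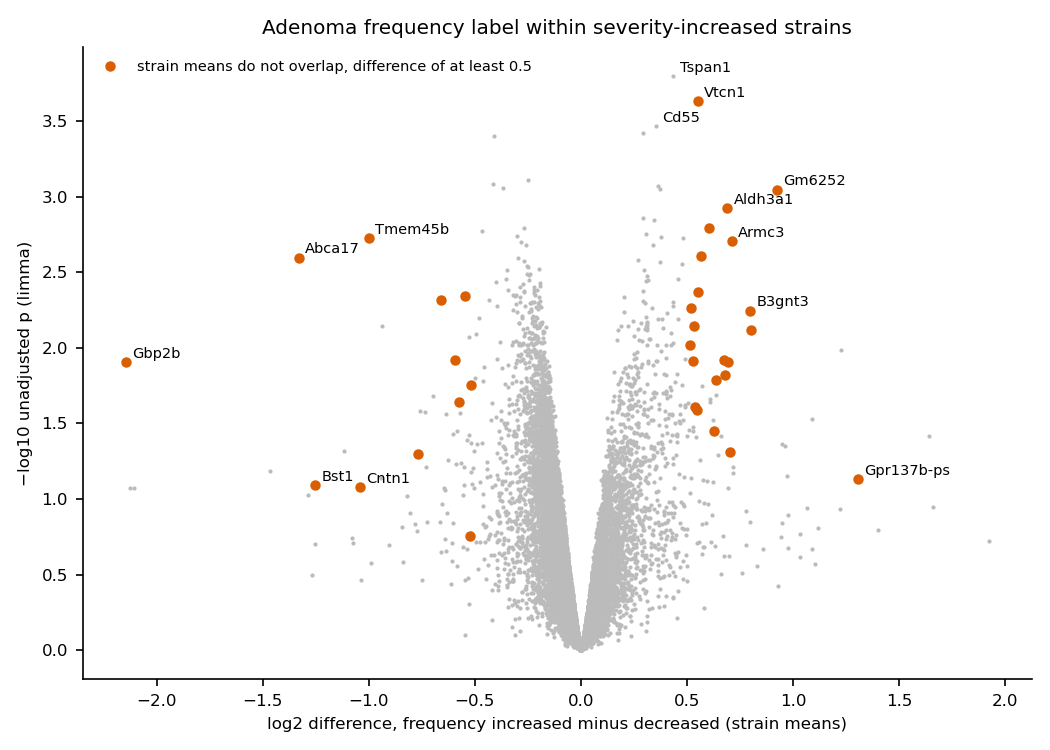
Each point is a named gene, placed by its log2 difference between strains of increased and decreased adenoma frequency (horizontal) and by the negative log10 of the unadjusted limma p from 7 strain means (vertical). Orange points are the 34 genes whose strain means do not overlap and differ by at least 0.5. Tspan1 and Vtcn1 have the smallest p among those labelled, Gbp2b the lowest difference among the orange points at -2.15, and 0 genes pass an adjusted p of 0.05.

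The gene that separated all 12 pairs was Tspan1, which encodes a tetraspanin, a membrane protein that organises other proteins at the cell surface. Its upstream sequence is shown with those of Dnah5 and Ccdc113, members of the ciliated cell group described further on, because Tspan1 separated all pairs and the other 2 are among the 3 ciliated genes whose strain means did not overlap. The sequences are the 250 bases before the annotated start, from RefSeq on mouse assembly GRCm38.p6, read 5′ to 3′ on the strand of the gene. Tspan1 is on the minus strand (chr4:116167599-116167848), Dnah5 on the plus strand (chr15:28203516-28203765) and Ccdc113 on the plus strand (chr8:95533850-95534099). Capitals mark matches to GTTGCC or its reverse complement GGCAAC, part of the X-box that RFX factors of ciliated cells recognise, and to TGTTTA or its reverse complement TAAACA, the core that forkhead factors such as Foxj1 recognise.
Tspan1: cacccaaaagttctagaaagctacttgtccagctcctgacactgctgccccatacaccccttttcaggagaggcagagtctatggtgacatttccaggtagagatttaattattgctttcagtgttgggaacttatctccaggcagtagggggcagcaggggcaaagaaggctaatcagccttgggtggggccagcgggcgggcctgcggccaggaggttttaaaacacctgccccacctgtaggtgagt
Dnah5: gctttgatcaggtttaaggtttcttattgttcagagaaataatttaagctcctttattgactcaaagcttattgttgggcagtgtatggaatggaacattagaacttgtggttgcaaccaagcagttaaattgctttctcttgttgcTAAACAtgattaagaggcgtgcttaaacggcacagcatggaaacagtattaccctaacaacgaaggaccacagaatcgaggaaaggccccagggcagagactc
Ccdc113: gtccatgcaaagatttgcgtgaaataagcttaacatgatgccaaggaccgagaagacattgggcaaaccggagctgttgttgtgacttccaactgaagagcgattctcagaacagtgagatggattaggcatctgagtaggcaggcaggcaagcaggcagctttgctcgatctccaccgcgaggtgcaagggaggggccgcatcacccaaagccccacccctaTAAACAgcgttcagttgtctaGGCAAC
Tspan1 held no match in this window, Dnah5 held 1 to TAAACA, and Ccdc113 held 1 to TAAACA and 1 to GGCAAC. Over all 32851 promoters of the same length in the table, 10.4% held the first motif and 12.03% the second on either strand. Of the 15 promoters found for 12 of the 15 ciliated genes, 5 held the first and 5 the second, and such a match is a description of letters and not of binding.

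Tspan1 signals in A/J were 9.01, 9.18 and 8.87, in C57BL/6J 9.15, 9.10 and 9.12, and in DBA/2J 9.04, 8.93 and 8.91. In the strains of decreased frequency they were 8.60, 8.64 and 8.75 in 129S1/SvlmJ, 8.48, 8.50 and 8.71 in BALB/cJ, 8.47, 8.59 and 8.49 in C3H/HeJ, and 8.60, 8.71 and 8.65 in C57L/J. All 9 arrays of increased frequency thus lay above all 12 of decreased frequency, with the lowest at 8.87 and the highest on the other side at 8.75. The difference was 0.44 ± 0.07 (standard error, 3 against 4 strain means, 1.35-fold), with an adjusted limma p of 0.791. The largest adjusted p over the 12 pairs was 0.0347, and Tspan1 separated 10 or 11 of the 12 pairs when any replicate of C57L/J or DBA/2J, replicate 1 or 2 of 129S1/SvlmJ or replicate 2 of A/J was left out, or under quantile normalization or median centring. KK/HlJ (8.35 ± 0.15) and MRL/MpJ (8.58 ± 0.18, SD, n = 3 each) lay with the strains of decreased frequency. Over the 7 strain means the gene most alike to Tspan1 in pattern was Lrrc26 (Pearson r 0.97), a description over strains that share the same arrays.

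Aldh3a1, an aldehyde dehydrogenase, had strain means of 7.87 ± 0.17 in A/J, 7.45 ± 0.13 in C57BL/6J and 7.62 ± 0.17 in DBA/2J (SD, n = 3 each). Its means were 6.65 ± 0.01 in 129S1/SvlmJ, 6.94 ± 0.10 in BALB/cJ, 7.05 ± 0.14 in C3H/HeJ and 7.18 ± 0.10 in C57L/J. The arrays did not overlap, the lowest of increased frequency being 7.32 and the highest of decreased frequency 7.30. The difference was 0.69 ± 0.14 (1.61-fold), and 11 of the 12 pairs were separated. Both strains left out were again low, KK/HlJ at 6.35 and MRL/MpJ at 6.85. Gstm6, a glutathione transferase of the mu class, had means of 4.59 to 5.05 on the increased side and 4.08 to 4.45 on the decreased side, a difference of 0.60 ± 0.13 at signals within the range of the Y-linked genes. For this gene KK/HlJ (4.86) and MRL/MpJ (4.73) lay with the strains of increased frequency.

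Vtcn1, a B7 family protein that restrains T cells, had means of 6.80 ± 0.10 in A/J, 6.52 ± 0.04 in C57BL/6J and 6.66 ± 0.25 in DBA/2J, against 5.96 ± 0.15 in 129S1/SvlmJ, 6.13 ± 0.18 in BALB/cJ, 6.23 ± 0.16 in C3H/HeJ and 6.13 ± 0.06 in C57L/J. Its lowest array of increased frequency, 6.43, was just above the highest of decreased frequency, 6.41. The difference was 0.55 ± 0.09 (1.47-fold), yet MRL/MpJ reached 6.77 and KK/HlJ 6.47. Trpv4, a calcium-permeable channel that responds to osmotic and mechanical stress, differed by 0.55 ± 0.14, with DBA/2J highest at 6.86 and the 4 decreased strains at 5.85 to 6.14. Clic6, a chloride intracellular channel protein, stood at 8.20 to 8.34 on the increased side. Of the decreased strains, 129S1/SvlmJ, BALB/cJ and C3H/HeJ were at 7.56 to 7.69, whereas C57L/J at 8.16 was close to DBA/2J at 8.20. Fblim1, a filamin-binding adaptor of cell adhesions, differed by 0.57 ± 0.13, and none of its arrays overlapped between the sides. Cd55, a brake on complement, was at 7.58 to 7.65 against 7.14 to 7.31 and differed by 0.36 ± 0.06, but it did not pass the F test among strains (adjusted p = 0.357).

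Some of the separations rested on part of a side. B3gnt3, a glycosyltransferase that extends O-linked sugars, was 7.21 ± 0.38 in A/J and 7.37 ± 0.09 in C57BL/6J but 6.38 ± 0.08 in DBA/2J, close to 129S1/SvlmJ at 6.29 ± 0.18. Its difference was 0.80 ± 0.21 with all 7 strains and 1.10 without DBA/2J, where the adjusted limma p was 0.0321. DBA/2J was the increased strain nearest the other side, so that p adds no support. Gm13375, an unnamed gene model, was high in A/J (7.31) and DBA/2J (7.42) while C57BL/6J (6.44) was level with the decreased strains (6.24 to 6.43). For Gm9917 the order was different, with C57BL/6J (8.08) and DBA/2J (8.01) high and A/J (7.22) next to BALB/cJ (7.18). Gm6252, Mir680-1 and Olfr331 met the naming rule with differences of 0.93, 0.51 and 0.67 but did not pass the F test (adjusted p = 0.188, 0.139 and 0.215), and their arrays overlapped between the sides.

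**Figure D2:**
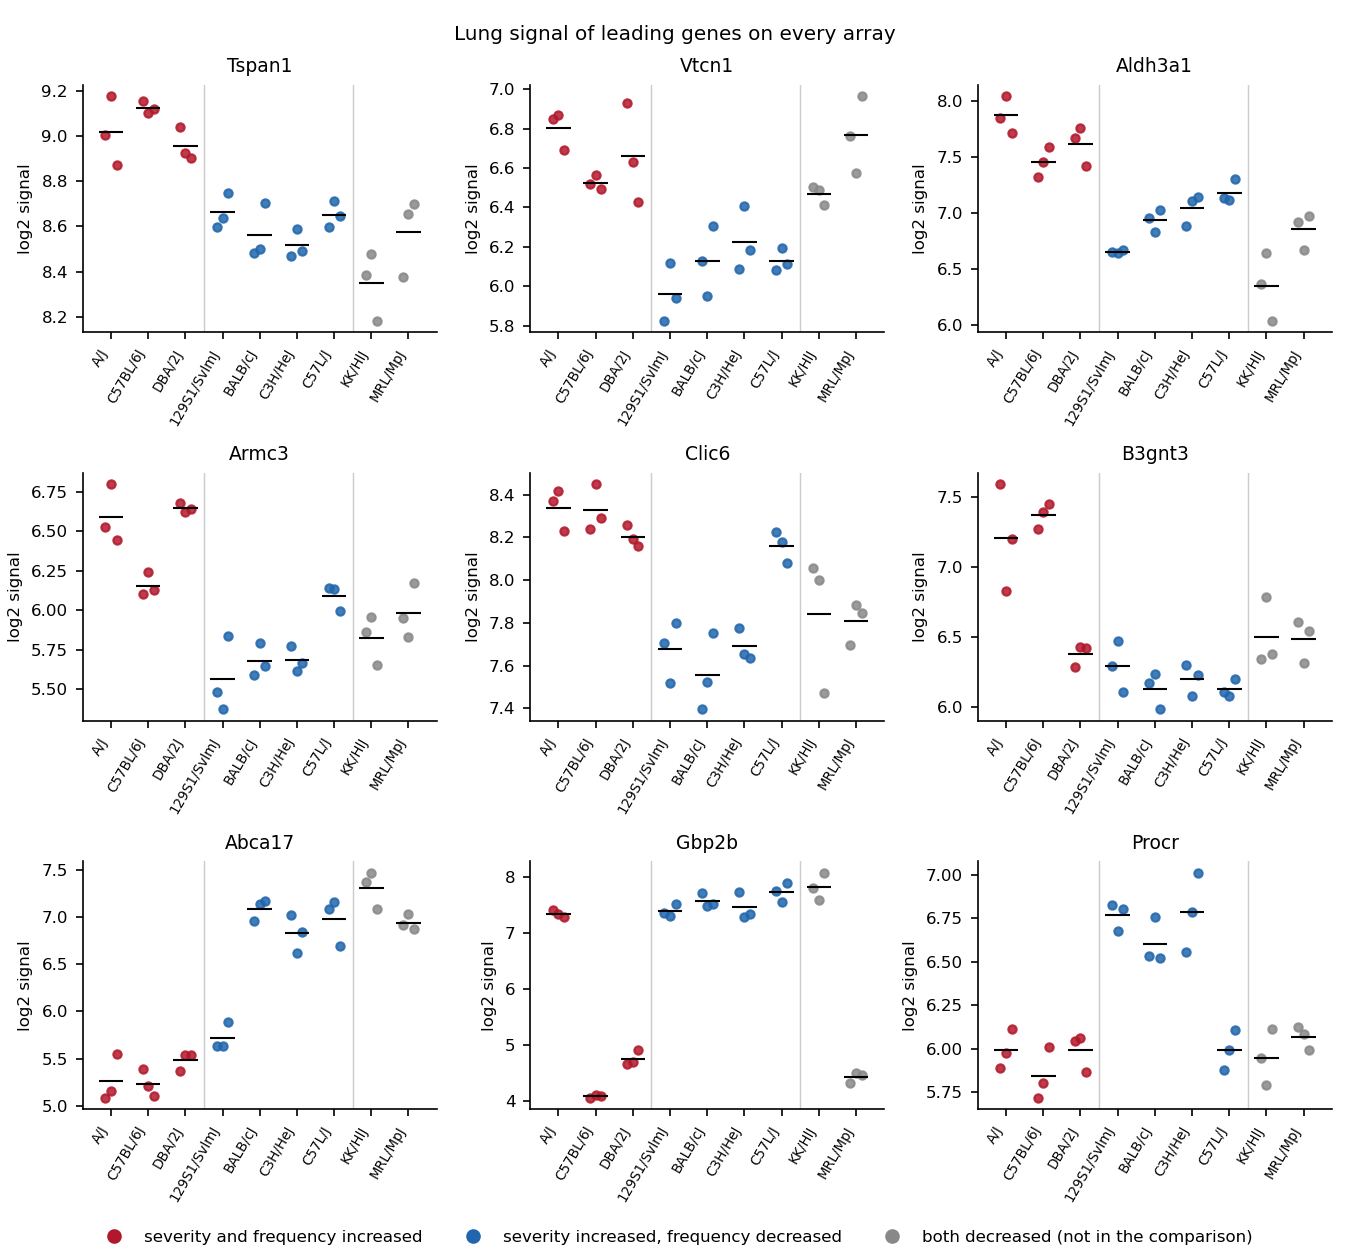
Log2 signal of 9 leading genes on every array, 1 panel per gene, with a point per mouse and a bar at the mean of each strain (n = 3). Red strains are increased in severity and frequency, blue strains are increased in severity and decreased in frequency, and grey strains are decreased in both and not in the comparison. Tspan1, Vtcn1, Aldh3a1 and Abca17 show no overlap of arrays between red and blue, while for Gbp2b the A/J arrays sit with the blue strains.

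Among the lower genes, Abca17, a lipid transporter of the ABC family, had the difference with the smallest p after Tmem45b. Its arrays ran from 5.08 to 5.55 with a median of 5.36 on the increased side and from 5.63 to 7.17 with a median of 6.90 on the decreased side. BALB/cJ (7.09 ± 0.12), C3H/HeJ (6.83 ± 0.20) and C57L/J (6.98 ± 0.25) were high, while 129S1/SvlmJ at 5.72 ± 0.15 was closer to A/J (5.26 ± 0.25), C57BL/6J (5.23 ± 0.14) and DBA/2J (5.48 ± 0.10). The difference was -1.33 ± 0.31 (2.51-fold lower), and 10 of 12 pairs were separated. C57BL/6J lay at the upper end of the range of the Y-linked genes and A/J just above it, so the fold is uncertain. Without 129S1/SvlmJ the difference was -1.64 with an adjusted limma p of 0.0161. That strain was the decreased one nearest the other side, so that p adds no support. KK/HlJ (7.31) and MRL/MpJ (6.94) were as high as the 3 high strains. The other gene lower in 10 pairs was Fbp2, the muscle isoform of fructose bisphosphatase, outside the naming rule and noted after its values were seen: A/J stood at 6.98, above C3H/HeJ at 6.59, so its strain means overlapped.

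Gbp2b, an interferon-inducible GTPase, showed a split within the increased side. It was at 4.08 ± 0.02 in C57BL/6J and 4.76 ± 0.14 in DBA/2J, within the range of the Y-linked genes, and at 7.34 ± 0.06 in A/J. The 4 decreased strains were at 7.39 to 7.74, so A/J was close to them. The fitted difference was -2.15 ± 0.67, and without A/J -3.12 with an adjusted limma p of 0.00711. Because C57BL/6J and DBA/2J were not above the range read as background, neither difference is a measured size. A/J was the increased strain nearest the other side, so the p without it adds no support. The strains left out were split, with KK/HlJ at 7.83 and MRL/MpJ at 4.43.

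The remaining lower genes differed in which strains set them apart. Procr, the endothelial receptor of protein C, was 6.60 to 6.78 in 129S1/SvlmJ, BALB/cJ and C3H/HeJ but 5.99 ± 0.11 in C57L/J, level with A/J and DBA/2J, both at 5.99. Dysf, a membrane repair gene known to be mutated in A/J, was 5.39 there and 6.82 or more in the other 6 strains, and Bst1, an ectoenzyme of blood and stromal cells, was 4.53 in A/J and 7.23 or more elsewhere. Cntn1, a cell adhesion protein of the nervous system, stood at 5.14 to 5.22 on the increased side and at 5.47 to 5.86 in BALB/cJ, C3H/HeJ and C57L/J, while 129S1/SvlmJ reached 7.87. Zfp868, a zinc finger gene, differed by -0.66 ± 0.17, with C3H/HeJ at 5.75 next to DBA/2J at 5.73. Tmem45b (4.61 to 5.29 against 5.59 to 6.36), Cyp2e1 (-0.55), Hsp90aa1 (-0.58) and Myot (-0.52) met the naming rule but not the F test. Bst1 in A/J, Cntn1 on the increased side and the lowest Tmem45b mean lay within the range of the Y-linked genes, so the sizes of their differences are uncertain. Without C3H/HeJ replicate 2 the difference of Cyp2e1, an ethanol-metabolising cytochrome, was -0.38 and that of Myot, a sarcomere gene, was -0.13.

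Genes of motile cilia were higher on the increased side as a list, though not in every strain pair. In lung homogenate, fewer cells of a type and less RNA per cell cannot be told apart. Of 15 measured markers of ciliated cells, 14 were higher on the increased side, beside 36% of all named genes, with a median difference of 0.29 beside -0.03. At an unadjusted limma p under 0.05, 6 of the 15 were higher and 0 lower, beside 1.6% of all genes higher, and 0 passed the adjusted test. Without C3H/HeJ replicate 2 the median was 0.29 and 9 were higher. In 3 of the 15 the strain means did not overlap, beside 1.46% of all genes in that direction. By the F test, which takes no account of the label, 12 of the 15 varied among the strains, beside 22.9% of all genes. That share was not particular to this list, since 14 of 15 cardiac muscle genes also passed. Dnah5, a heavy chain of the outer dynein arm that drives ciliary beating, was 8.01 to 8.17 on the increased side. It was 7.28 ± 0.14 in 129S1/SvlmJ, 7.63 ± 0.08 in BALB/cJ, 7.76 ± 0.14 in C3H/HeJ and 7.80 ± 0.03 in C57L/J, a difference of 0.46 ± 0.13 (adjusted p = 0.791). Cfap126, which positions basal bodies, differed by 0.32 ± 0.09. Ccdc113, a protein of ciliary assembly, differed by 0.38 ± 0.11, with C57L/J at 6.94 beside A/J at 6.95.

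The order of the strains in this list was not that of the label alone. The mean of the 15 genes was 7.18 in A/J, 7.25 in C57BL/6J and 7.21 in DBA/2J. It was 6.71 in 129S1/SvlmJ, 6.88 in BALB/cJ and 6.96 in C3H/HeJ, but 7.25 in C57L/J, the same level as the related C57BL/6J. A/J, C57BL/6J and DBA/2J had 11, 11 and 10 of the 15 genes higher than 129S1/SvlmJ at an adjusted p under 0.05, 7, 9 and 8 higher than BALB/cJ, 3, 6 and 6 higher than C3H/HeJ, and 0, 1 and 0 higher than C57L/J. Against C57L/J, 2, 1 and 1 of the genes were lower. The background of these counts was 3.23%, 5.66% and 5.81% of all genes higher against 129S1/SvlmJ, 2.04%, 3.96% and 3.29% against BALB/cJ, 1.99%, 4.52% and 2.95% against C3H/HeJ, and 1.97%, 2.98% and 2.36% against C57L/J. The share lower against C57L/J was 3.57%, 2.91% and 2.06%. Leaving out C57L/J gave a median difference of 0.46 over the list, and leaving out 129S1/SvlmJ gave 0.18. KK/HlJ and MRL/MpJ, at 7.09 and 7.06, lay between C3H/HeJ and A/J.

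**Figure D3:**
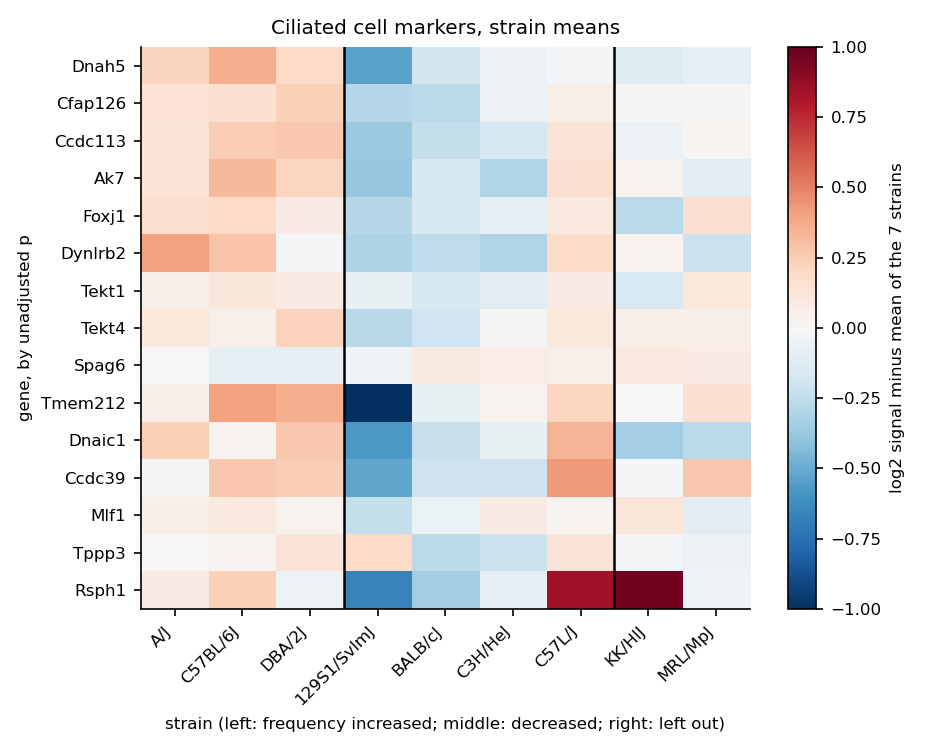
Strain means of the 15 ciliated cell markers, each shown as the log2 signal minus the mean of the 7 compared strains, with blue for lower and red for higher. Columns are strains, with the vertical lines dividing increased frequency, decreased frequency and the strains left out. The 129S1/SvlmJ column is blue for nearly every gene, and the C57L/J column resembles the 3 increased strains.

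Single members departed from the list in ways that a group mean hides; these were picked after their values were seen. Rsph1, a radial spoke protein, was 8.09 ± 0.07 in C57L/J and 8.21 ± 0.20 in KK/HlJ and 6.58 to 7.48 in the other strains. Tmem212 was 7.92 or higher in every strain except 129S1/SvlmJ, where its 3 arrays lay lower. Spag6, a protein of the central apparatus, was the member with a difference below 0, at -0.11 with signals of 4.90 to 5.08 near background. Foxj1, the transcription factor that directs motile cilia formation, was 7.61 to 7.72 on the increased side and 7.24 to 7.62 on the decreased side (difference 0.26 ± 0.09). Genes outside the list had a like pattern: over the 7 strain means Lrrc34, a leading higher gene at 0.53, was most alike to 1700013F07Rik, Drc7 and Dnah12 (Pearson r 0.998, 0.997 and 0.990). Drc7 and Dnah12 encode axonemal proteins. Hoatz, a cilia-associated leading gene also at 0.53, was most alike to Ccdc113 (r 0.98). Armc3, an armadillo repeat gene, had a difference of 0.71 ± 0.16 and separated 11 of 12 pairs, the remaining one being narrow, since C57BL/6J was 6.16 ± 0.07 and C57L/J 6.09 ± 0.08.

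Club cell markers were higher on the increased side in 12 of 12 genes, beside 36% of all genes, by a median of 0.13. Of the 12, 3 were higher at an unadjusted limma p under 0.05, beside 1.6% of all genes, and 0 passed the adjusted test. The counts were the same without C3H/HeJ replicate 2. The 12-gene mean was 10.78 in A/J, 10.68 in C57BL/6J and 10.72 in DBA/2J, against 10.55 in 129S1/SvlmJ, 10.49 in BALB/cJ, 10.52 in C3H/HeJ and 10.55 in C57L/J. All 9 arrays of increased frequency, from 10.62 to 10.91, lay above all 12 of decreased frequency, from 10.39 to 10.60. Mice of a strain are not separate units, and with 44 lists examined, separation by chance was not tested. Median differences over the genes were above 0 in every strain pair, from 0.002 for C57BL/6J against 129S1/SvlmJ to 0.27 for DBA/2J against BALB/cJ. Against 129S1/SvlmJ, C57BL/6J had 1 gene higher and 1 lower at an adjusted p under 0.05, so that gap in means came from part of the list. MRL/MpJ, at 10.64, was above the decreased strains and KK/HlJ, at 10.38, below them. Hp, the haptoglobin gene, differed by 0.22 ± 0.07 and Gabrp, a GABA receptor subunit of secretory epithelium, by 0.41 ± 0.15. Aldh1a7, an aldehyde dehydrogenase of club cells, differed by 0.22 ± 0.09, but 129S1/SvlmJ at 10.68 was level with the increased strains at 10.67 to 10.71.

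Mucus and airway secreted genes had a median difference of 0.26 over 12 genes, 9 of them above 0 beside 36% of all genes, and this median was 0.02 without 129S1/SvlmJ. Bpifb1, a secreted defence protein of the airway, was 10.46 ± 0.20 in A/J, 9.74 ± 0.16 in C57BL/6J and 9.42 ± 0.56 in DBA/2J. It was 8.55 ± 0.79 in 129S1/SvlmJ, 8.08 ± 0.40 in BALB/cJ and 8.39 ± 0.14 in C3H/HeJ, but 9.56 ± 0.33 in C57L/J, so the sides overlapped (difference 1.23 ± 0.37). Muc5b, a gel-forming mucin, was 8.68 ± 0.20 in A/J and 7.05 ± 0.45 in DBA/2J, which span the 6.88 to 8.02 of the decreased strains. The list therefore did not separate the sides, in contrast to the club cell mean.

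**Figure D4:**
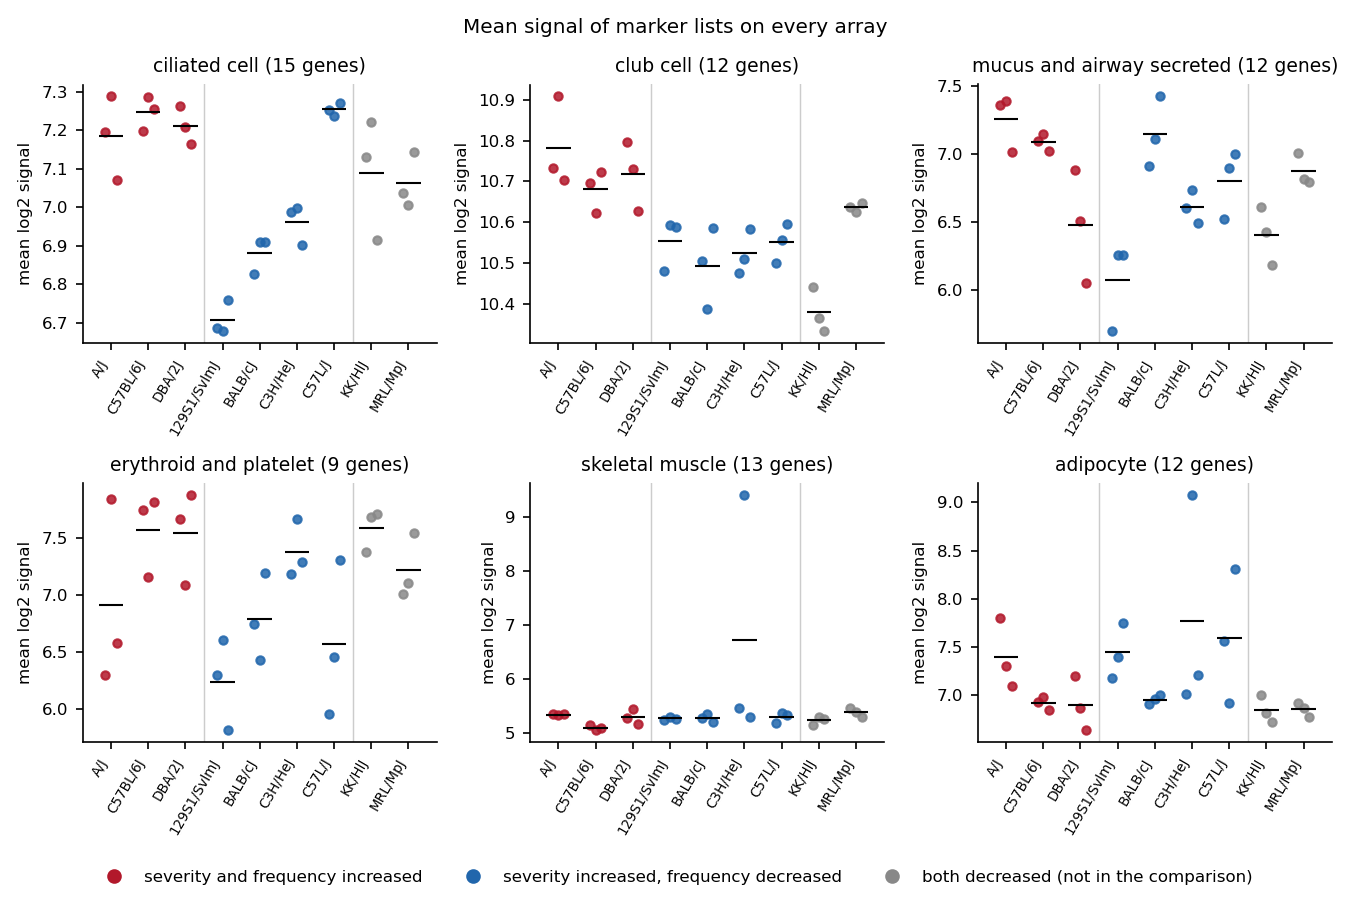
Mean log2 signal over the genes of 6 marker lists on every array, with a point per mouse and a bar at the mean of each strain (n = 3), coloured by adenoma label as red (both increased), blue (severity increased, frequency decreased) and grey (both decreased, not compared). The club cell arrays of red and blue strains do not overlap, C57L/J is level with the red strains for ciliated cell genes, and C3H/HeJ replicate 2 stands at 9.40 for skeletal muscle and 9.07 for adipocyte genes.

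Lists of alveolar cells, from which adenomas of the mouse lung commonly arise, had medians near 0. The 16 markers of alveolar type II cells, which make surfactant, had a median difference of 0.05 with 0 at an unadjusted limma p under 0.05, and the 12 of alveolar type I cells, the flat cells of gas exchange, had a median of -0.00 with 0 at that level. Medians were 0.03 for 15 endothelial and 0.01 for 18 fibroblast and matrix genes, again with 0 at that level. The share of all genes at that level, in either direction, was 6.21%, so counts of 0 in lists of this size are near it. Of 34 conjugating enzymes and NRF2 targets, 5 were higher and 0 lower at an unadjusted limma p under 0.05, beside 1.6% and 4.61% of all genes. Their median was 0.07, and 0.02 without the strain C3H/HeJ. Besides Gstm6 these included Mgst2, a microsomal glutathione transferase (0.31 ± 0.07), and Gclc, the catalytic subunit of glutathione synthesis (0.48 ± 0.18).

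Genes tied to lung tumour susceptibility lay on both sides of 0. Of 14 measured genes of the Pas1 locus, the main mapped modifier of lung tumour number in mice, 6 were higher and 8 lower, with a median of -0.09. Ldhb, a lactate dehydrogenase subunit, was the only one at an unadjusted limma p under 0.05 (0.14 ± 0.06), and it did not pass the F test among strains (adjusted p = 0.914). Of 30 other lung tumour candidates, 13 were above 0 and 17 below, with a median of -0.01 that was 0.00 after quantile normalization and 0.01 after median centring. Sox2, a transcription factor of airway epithelium, was the only one of them at that level, with 7.49 to 7.80 against 7.24 to 7.53 (0.27 ± 0.10). Among 13 EGF receptor ligands and family members, Egf and Epgn were lower by differences of -0.18 and -0.15, and Epgn lay at 3.50 to 3.79, within the range of the Y-linked genes.

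The 9 erythroid and platelet genes were all above 0, beside 36% of all genes, with a median of 0.48, or 0.53 without C3H/HeJ replicate 2, but their mean was 7.58 in C57BL/6J and 7.55 in DBA/2J, 7.38 in C3H/HeJ and 6.91 ± 0.83 in A/J, so the sides overlapped; Ppbp, a platelet chemokine, differed by 1.64 ± 0.66. The skeletal muscle list had a median of -0.39 with all arrays and -0.06 without C3H/HeJ replicate 2. The adipocyte list had a median of -0.35 and 3 genes lower at an unadjusted limma p under 0.05, against -0.19 and 0 without that array. The share of all genes lower at that p was 4.61%. Of 16 circadian clock genes, 12 were below 0, a count near the 64% of all genes. Their median was -0.17 and ran from -0.23 to -0.12 with each strain left out. At an unadjusted limma p under 0.05, 2 were higher and 2 lower, beside 1.6% and 4.61% of all genes. The list mean was 7.34 in C57BL/6J and 7.32 in DBA/2J. In A/J it was 7.56, within the 7.48 to 7.58 of the decreased strains. Hlf, a clock output factor, was lower by a difference of -0.43 ± 0.11, and Arntl, the activator of the clock, was higher by 0.61 ± 0.21. Arntl was 7.37 in C57BL/6J and 7.11 in DBA/2J but 6.45 in A/J, below C57L/J at 6.66. No hour of tissue collection was used here, and its part in these values was not tested.

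**Figure D5:**
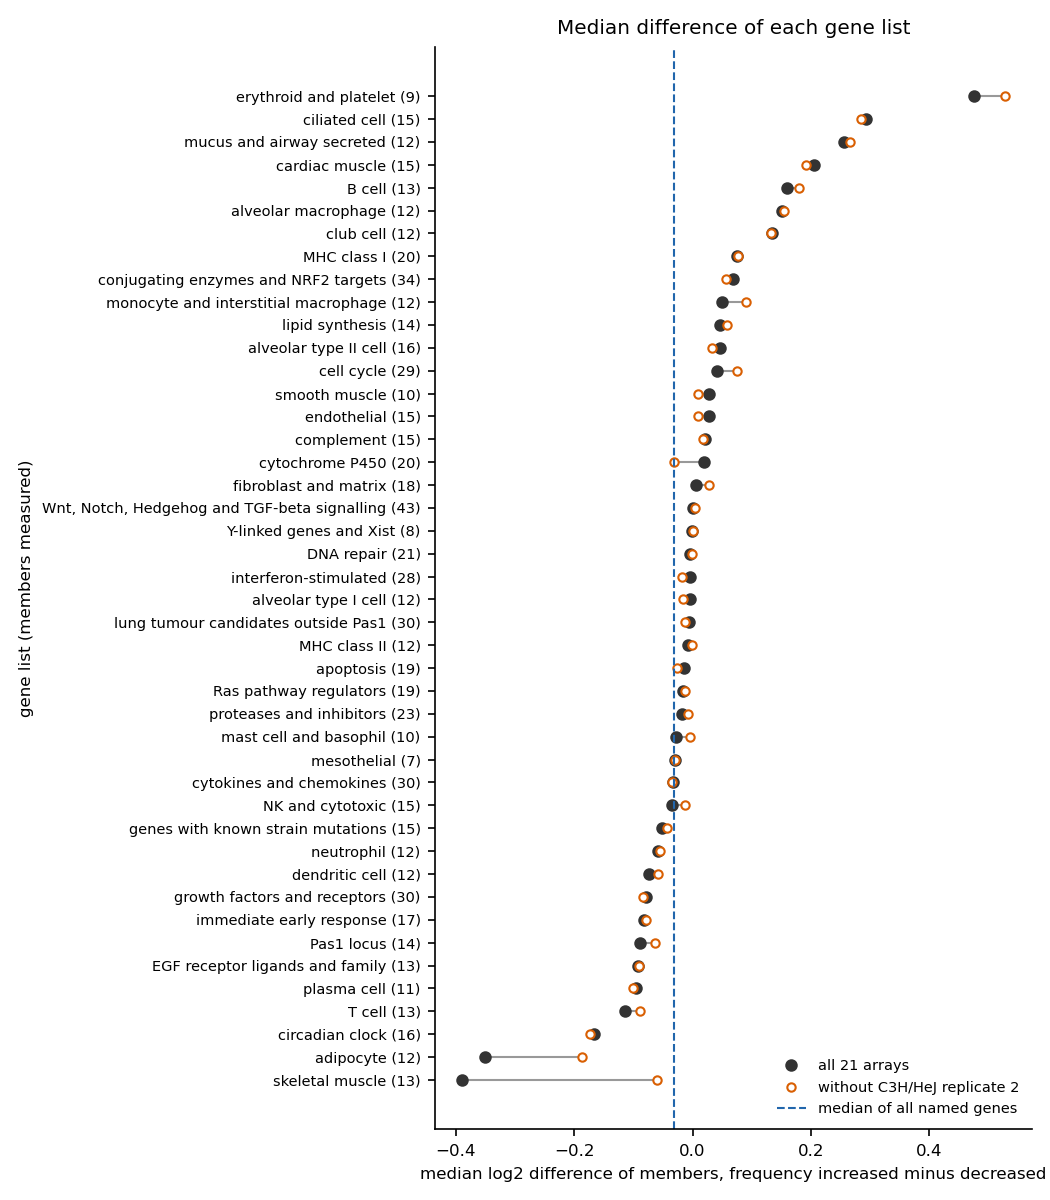
Median log2 difference between strains of increased and decreased frequency for the measured members of each gene list, with the number of members in parentheses. Filled points use all 21 arrays, open points leave out C3H/HeJ replicate 2, and the dashed line is the median of all named genes at -0.03. The erythroid and platelet, ciliated cell and mucus lists lie furthest to the right, and the skeletal muscle list moves from -0.39 to -0.06.

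The strains decreased in both labels were divided over the leading genes. A strain was placed by the midpoint of the gap between the sides. Of the 22 genes higher by at least 0.5 without overlap, KK/HlJ was on the side of the increased strains for 10 and MRL/MpJ for 8, both for 5 and neither for 9. Of the 12 lower genes the counts were 7 for KK/HlJ, 4 for MRL/MpJ, 2 for both and 3 for neither. Aldh3a1, Armc3, Clic6, Hoatz and Lrrc34 were among the higher genes for which both strains lay with those of decreased frequency, and Abca17 and Cntn1 were such genes in the lower direction.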

How the data were processed

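Right lung RNA of 3 female mice for each strain was hybridised to Affymetrix Mouse Gene ST arrays. TRIzol extraction, RNeasy clean-up and a Bioanalyzer check preceded this, per the labels' protocols. The deposited table holds log2 signals of 21225 probe sets; per the submitters' processing notes the authors used the affy package, with no version given, and the normalization method and genome build are not given in the sources used here. Values were used as deposited. The probe table named 20239 probe sets by 1 gene and 986 by none, which were left out. Precision is limited by the number of strains, 3 against 4.

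With limma 3.58.1 in R 4.3.3, the mean of the 3 arrays was taken for each strain and a linear model with moderated variances (lmFit, eBayes) was fitted to the 7 means, frequency increased minus decreased, with the Benjamini-Hochberg adjustment over all named genes and calls at an adjusted p under 0.05. The p-values thus measure the spread between strains. A second limma fit on the 21 arrays, with a mean per strain, gave the F test and the 12 contrasts between strains, adjusted within each contrast. The fits were tested on simulated data.

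Lists of 44 cell types, tissues and pathways were used, with 746 of 802 entries measured, 4 through a synonym; they are described by counts and medians, without a test. A planned exact permutation of marker levels over strains cannot reach a p of 0.05 with 3 strains against 4, so none is reported. The comparison, the lists and the naming rule were chosen with earlier results of these data known. The rule took up to 15 genes per direction in order of unadjusted p from those with non-overlapping strain means and a difference of at least 0.5, genes that separated all 12 pairs, up to 3 members of each list by p, all tumour candidates, and the 3 genes most alike to a named gene over the 7 strain means. Genes named outside it were chosen after their values were seen, as were the remaining list members.

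Alternatives were quantile normalization, median centring, leaving out dim genes, use of unnamed probe sets, a trended and robust prior, arrays in place of strain means, fits with 9 strains, other thresholds, and leaving out each array or strain. Versions of the list medians and of the unadjusted counts under alternatives were chosen after seeing the data.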

Additional observations from a re-analysis of the deposited data

Results flagged for a closer look

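Within the 4 strains of decreased frequency, the strain means of the leading genes and lists were examined for a strain far from the other 3, by the gap to the nearest strain as a share of the whole range. Of 63 values examined 6 were past the limit of Dixon's test, and chance gives about 1 in 20. Cntn1 in 129S1/SvlmJ was 7.87 against 5.47 to 5.86 (share 0.838), so its difference between the frequency groups leans on that strain. Adipoq, an adipocyte hormone, was 6.37 in BALB/cJ against 7.14 to 7.25 (share 0.871). The other 4 values concerned C3H/HeJ. Myot was 5.54 against 4.02 to 4.13 (share 0.924) and the mean level of the skeletal muscle list 6.72 against 5.26 to 5.29 (share 0.980), both including replicate 2. Mgst2 was 7.01 against 7.11 to 7.13 (share 0.839), and Ldhb 8.09 against 7.97 to 7.99 (share 0.871).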

How the results depend on the processing

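The count of 0 genes at an adjusted p under 0.05 (limma on strain means) was also 0 with each array left out in turn, after quantile normalization or median centring, without dim genes, with all probe sets, with an intensity trend and robust prior, in both fits with 9 strains and at an adjusted p under 0.10. Leaving out each strain gave 0 to 3 calls: 2 without A/J (Abhd1 and Gbp2b), 3 without DBA/2J (Spink5, B3gnt3 and Tlcd2) and 1 without 129S1/SvlmJ (Abca17). For Gbp2b, B3gnt3 and Abca17 the strain left out was the one of its side that lay nearest the other side. A fit on the 21 arrays with strain as a random block gave 17 calls (14 higher and 3 lower, Tspan1 and Aldh3a1 among them). It took 1 correlation of 0.246 for all genes, which is too low for genes that vary mostly by strain. With arrays taken as independent, which ignores that mice share a strain, there were 140 calls. The unadjusted threshold on strain means gave 1256.

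The replicate numbers did not pair the arrays: deviations of same-numbered arrays of different strains had a median correlation of -0.02 over 63 pairs. In the array fit with strain as a random block, adding the replicate number as a block gave 8 calls in place of 17. That fit also took 1 correlation (0.251) for all genes, so its calls are not read as results either. With the replicate block in the array fit of a mean per strain, Tspan1 no longer separated all 12 pairs, so that count was 0. The F test then passed 4380 genes. The count of genes separating all pairs was also 0 after quantile normalization and median centring, and 0 to 1 with each array left out.

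The count at an unadjusted p under 0.05 was 724 without dim genes (274 higher and 450 lower), 3078 with independent arrays, 1013 to 1561 with each array and 636 (without C57BL/6J) to 1791 with each strain left out. Higher genes were 25.7% of these calls as deposited, 56% after quantile normalization and 45.2% after median centring. Non-overlapping strain means, 1404 in all and 34 with a difference of at least 0.5, numbered 1181 to 1759 and 28 to 40 with each array, and 2048 to 3920 and 55 to 160 with each strain left out (most without A/J), where fewer strains can overlap. Of 53 genes followed over all alternatives, 0 changed direction. They were leading genes and list members picked from these same data. Strain means that do not overlap keep their direction when any strain is left out, so this count was largely fixed by the choice of genes. With 3 against 4 strains and small differences, a p that misses the threshold does not show that the sides were alike.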

Other observations

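Immune lists gave few differences that followed the label. Of 13 B cell genes 12 were above 0, beside 36% of all genes, with a median of 0.16. The mean of these genes was 6.34 in A/J, 6.72 in C57BL/6J and 6.72 in DBA/2J. On the decreased side it was 5.94 in 129S1/SvlmJ, 6.37 in C3H/HeJ, 6.54 in C57L/J and 6.74 in BALB/cJ. The sides thus overlapped, with BALB/cJ highest and 129S1/SvlmJ lowest. Of 13 T cell genes 9 were below 0, beside 64% of all genes, with a median of -0.11. At an unadjusted limma p under 0.05 there were 0 B cell genes and 2 lower T cell genes, Il7r and Cd4, beside 4.61% of all genes lower, and 0 passed the adjusted test. Il7r, the interleukin-7 receptor of lymphocytes, differed by -0.21 and Cd4, the helper T cell coreceptor, by -0.22. Cd209a, a lectin of dendritic cells, was 7.17 to 7.52 on the increased side and spread from 5.25 in 129S1/SvlmJ to 7.18 in C3H/HeJ on the decreased side. Interferon-stimulated genes had a median of -0.00 over 28 members, and within that list C57BL/6J and DBA/2J, low for Gbp2b, were highest for Gbp2, at 9.31 and 9.35 against 8.37 in A/J and 8.49 to 8.79 in the decreased strains.

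Other single members were strain-specific rather than shared by a side, and were picked after their values were seen. Trim12a was 8.57 in C57BL/6J and 8.17 in KK/HlJ and at 2.52 to 2.87 in the other 7 strains. Ifi204 was 6.19 in A/J and 2.74 to 3.76 in the others, and Klra8, an NK cell receptor gene, was 5.78 in C57BL/6J and 2.73 to 4.21 elsewhere. Cardiac muscle genes in mouse lung mark muscle around the large veins. Of 15 such genes 11 were above 0, beside 36% of all genes, with a median of 0.21. Their mean level was highest in A/J among the 7 compared strains, at 8.14. C57BL/6J at 7.46 and DBA/2J at 7.65 lay among the decreased strains. Those were C57L/J at 7.85, C3H/HeJ at 7.87, 129S1/SvlmJ at 7.55 and BALB/cJ at 7.44. The level thus did not separate the sides. By the F test among strains 14 of the 15 passed, beside 22.9% of all genes.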
